A study of Homo sapiens with 24 samples.

Results

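The genes described here are 10 enzymes of 2 detoxifying classes, 7 glutathione transferases (GSTA1, GSTA2, GSTA4, GSTM3, GSTP1, GSTK1 and MGST1) and 3 aldo-keto reductases (AKR1C1, AKR1C2 and AKR1C3). They were taken by symbol from the 18889 genes of the deposited table, where each of the 10 had 1 row. The table held 24 cultures of 3 established human estrogen receptor-positive (ER+) breast cancer lines, HCC1500, ZR-75-30 and MDA-MB-175. Each line was kept for 48 h in medium without serum that held either 5 mM glucose (low glucose, LG) or 25 mM glucose (high glucose, HG), with 4 replicates in each of the 6 groups. All cultures had first been conditioned in low glucose, and the sources used here name no engineered allele. The comparisons asked how RNA levels of these enzymes differed between the media in each line and between the lines. Nothing states whether the 4 replicates were independent cultures grown apart, so p-values measure the spread between these samples only.

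Glutathione transferases join the tripeptide glutathione to reactive, electrophilic compounds, and the products leave the cell through conjugate export pumps. The cytosolic alpha class (GSTA1, GSTA2, GSTA4), mu class (GSTM3) and pi class (GSTP1) differ from the mitochondrial and peroxisomal kappa enzyme GSTK1 and from MGST1, which sits in membranes. The AKR1C enzymes use NADPH to reduce ketones and aldehydes, among them steroid hormones and prostaglandins. AKR1C1 inactivates progesterone, AKR1C2 reduces dihydrotestosterone, and AKR1C3 makes androgens and estrogens more active and forms prostaglandin F. Several genes of both classes are known targets of the stress-responsive factor NRF2 in other tissues.

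Values were reads divided by 1 factor per sample, and a culture had 9140024 to 17998819 reads once these were multiplied back. A count of 3 reads, taken here as the floor of detection, was worth between 0.953 and 2.29 on the scale of the values, and floors cover counting error only. HCC1500 HG replicate 3 stood apart. Its values summed to 7319780 against at most 5716906 in the other 7 HCC1500 cultures, and 23.9% of genes lay more than 1 log2 unit from its group against at most 1.74% in any other culture. Its deviation from its group correlated with exon length across 13021 genes (Spearman's rho -0.54, with no test, since genes are not independent). A length trend was not particular to it. The other HG cultures of HCC1500, each set against a group that includes replicate 3, were at 0.45 to 0.46, and MDA-MB-175 HG replicate 1 was at -0.30. Changes of the 10 genes with glucose in HCC1500 are given with and without HCC1500 HG replicate 3, since it stood apart. Of 9 luminal markers, 8 or 9 averaged above the floor in each group, and their summed values in a culture were 31595 to 64553. Of 12 markers of other cell types sought, 7 were in the table, and their summed values were 115 to 293. Of these 7, between 2 (HCC1500 at low glucose) and 6 (MDA-MB-175 in both media) averaged above the floor. ESR1, the estrogen receptor itself, at low glucose averaged 3178 in HCC1500, 618 in ZR-75-30 and 335 in MDA-MB-175, whereas PGR, the progesterone receptor, averaged below the floor in MDA-MB-175 and in ZR-75-30 at low glucose. In these bulk cultures, fewer expressing cells and less RNA per cell cannot be told apart.

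The 3 AKR1C genes lie within 144.4 kb of chromosome 10 (GRCh37), AKR1C1 at chr10:5005445-5025475, AKR1C2 at chr10:5029967-5060223 on the minus strand, and AKR1C3 at chr10:5077546-5149878. GSTA2 (chr6:52614885-52628273), GSTA1 (chr6:52656169-52668658) and GSTA4 (chr6:52842746-52860102) lie on the minus strand of chromosome 6 within 245.2 kb, with GSTA5 and GSTA3 between. GSTM3 is at chr1:110276554-110283660, GSTP1 at chr11:67351213-67354127, GSTK1 at chr7:142941186-142967947 and MGST1 at chr12:16500076-16762193. The values are whole-gene read totals, so that exons, introns and UTRs were not separated.

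Close paralogs can exchange reads. Over stretches of 50 nt, 47.3% of the AKR1C2 reference transcript was also present in the transcript of another gene, against 22.7% for AKR1C1, 18.7% for AKR1C3, 26.01% for GSTA1 and 22.01% for GSTA2. At 100 nt the shares were 27.8%, 12.7%, 7.82%, 9.83% and 9.80%. GSTA4, GSTM3, GSTP1, GSTK1 and MGST1 shared no stretch of either length. How the authors treated reads that match several genes is not given in the sources used here, so the split among AKR1C1, AKR1C2 and AKR1C3 and between GSTA1 and GSTA2 is uncertain, and sums are given beside the single genes. GSTM3 also overlaps 202 exon bases of a gene on the opposite strand, and AKR1C3 overlaps 84 bases of a gene on its own strand.

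The likeness of these paralogs reaches into their promoters. The windows below, from RefSeq (GRCh38.p14), run from 250 bases before to 50 bases after each gene's start, and capitals mark bases that differ between the pair or, inside the stretch that the windows share, have no partner. They are shown because AKR1C1 with AKR1C2, and GSTA1 with GSTA2, moved in the same direction with glucose in MDA-MB-175. The AKR1C1 window is chr10:4963165-4963464 (plus strand) and the AKR1C2 window chr10:5003808-5004107 (minus strand).
AKR1C1: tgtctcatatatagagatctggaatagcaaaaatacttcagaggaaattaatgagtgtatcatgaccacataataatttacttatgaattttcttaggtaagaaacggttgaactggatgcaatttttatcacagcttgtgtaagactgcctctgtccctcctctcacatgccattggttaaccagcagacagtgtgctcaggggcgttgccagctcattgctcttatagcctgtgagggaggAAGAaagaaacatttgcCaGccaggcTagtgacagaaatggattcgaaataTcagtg
AKR1C2: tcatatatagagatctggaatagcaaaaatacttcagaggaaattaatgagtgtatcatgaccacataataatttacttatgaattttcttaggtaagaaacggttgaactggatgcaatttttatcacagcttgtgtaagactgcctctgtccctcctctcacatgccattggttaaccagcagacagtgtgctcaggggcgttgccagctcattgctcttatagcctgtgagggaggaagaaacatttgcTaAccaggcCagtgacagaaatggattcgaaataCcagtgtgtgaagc
The windows are offset by a few bases at their ends, which are left in lower case. Of 292 paired bases, 288 were identical (98.63%). AKR1C3 was less close, with 227 of 291 paired bases identical to AKR1C1 (78.01%). The GSTA1 window is chr6:52803767-52804066 and the GSTA2 window chr6:52763426-52763725, both on the minus strand.
GSTA1: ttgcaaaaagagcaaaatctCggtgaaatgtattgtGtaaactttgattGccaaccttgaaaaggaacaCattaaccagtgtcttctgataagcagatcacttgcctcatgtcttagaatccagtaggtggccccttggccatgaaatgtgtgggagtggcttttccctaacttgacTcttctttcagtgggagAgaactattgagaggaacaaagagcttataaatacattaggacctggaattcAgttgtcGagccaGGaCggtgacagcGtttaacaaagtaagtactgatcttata
GSTA2: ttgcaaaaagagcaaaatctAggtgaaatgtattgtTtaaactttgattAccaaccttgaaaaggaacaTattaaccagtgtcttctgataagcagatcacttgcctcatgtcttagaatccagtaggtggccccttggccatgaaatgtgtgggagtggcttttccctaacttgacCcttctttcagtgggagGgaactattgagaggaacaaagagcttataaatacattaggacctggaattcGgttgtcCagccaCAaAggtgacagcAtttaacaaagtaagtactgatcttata
Here 288 of 300 bases were identical (96%).

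The motif TGACNNNGC, the core of the antioxidant response element to which NRF2 binds with its partners, was searched on both strands. It was present in 4687 of 35116 RefSeq promoter windows (13.347%). Among the 10 genes it was found as TGACTCAGC in GSTP1, as TGACCTGGC in GSTA4 and as TGACAAAGC in 1 of the 3 windows of MGST1. The GSTP1 match also holds the letters TGACTCA, the motif of AP-1 factors. A match is a description of the letters and not of binding. The GSTP1 window (chr11:67583562-67583861, plus strand) is shown because this gene was above the floor in only 1 of the 3 lines, with its CpG dinucleotides in capitals.
GSTP1: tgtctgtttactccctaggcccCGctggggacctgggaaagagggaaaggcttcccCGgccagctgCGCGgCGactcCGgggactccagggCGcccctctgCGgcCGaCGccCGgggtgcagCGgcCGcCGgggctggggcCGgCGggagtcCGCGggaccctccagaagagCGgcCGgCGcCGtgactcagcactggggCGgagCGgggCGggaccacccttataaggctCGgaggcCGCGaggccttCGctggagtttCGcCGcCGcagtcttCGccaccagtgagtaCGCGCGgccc
It held 36 CpG dinucleotides against a median of 14 over all windows, and 12.681% of windows held as many or more. Methylation was not measured.

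**Figure D1:**
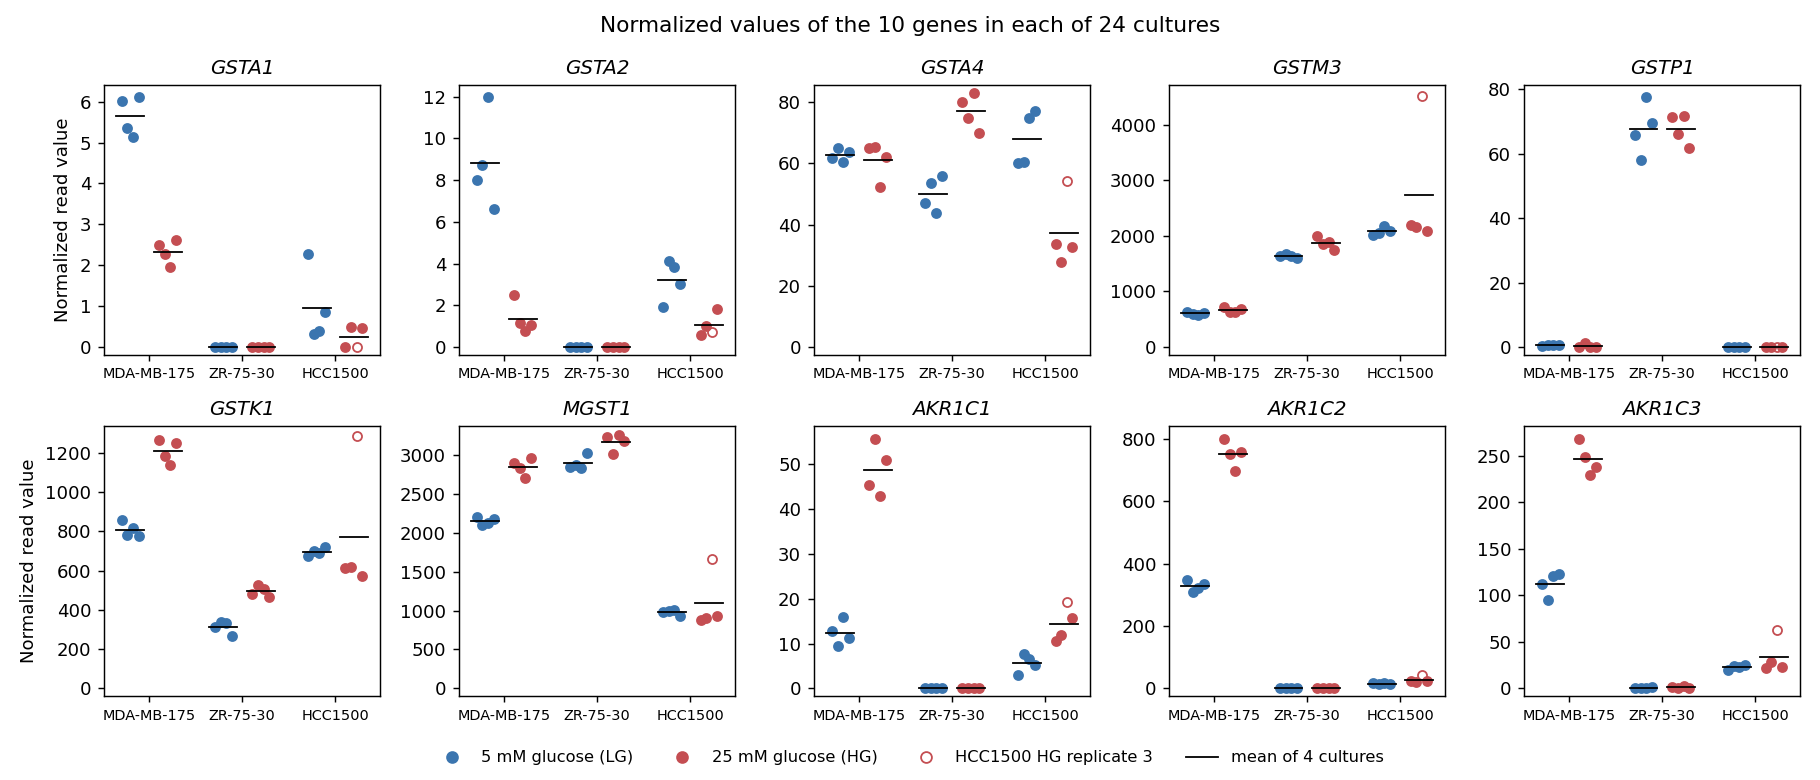
Normalized read value (vertical axis, linear, a scale for each gene) of the 10 genes in each of the 24 cultures by line (horizontal axis), blue for 5 mM and red for 25 mM glucose, with a line at the mean of 4 cultures and an open point for HCC1500 HG replicate 3. AKR1C1, AKR1C2 and AKR1C3 separate the media in MDA-MB-175, and GSTP1 is at 58.0 to 77.5 in ZR-75-30 and at or near 0 elsewhere. The open point is the highest of its group for GSTA4, GSTM3, GSTK1, MGST1, AKR1C1, AKR1C2 and AKR1C3.

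Among the 10 genes, the largest increases in MDA-MB-175 were those of the reductases. In MDA-MB-175, AKR1C2 was at 347, 308, 322 and 336 in the 4 LG cultures and at 801, 753, 696 and 759 in the 4 HG cultures. Every HG culture lay above every LG culture. It rose 2.29-fold, from 328 ± 16.7 to 752 ± 43.1 (SD, n = 4), a change of 1.19 ± 0.05 (SE) on the log2(value + 1) scale used for all tests (limma, adjusted p = 1.9e-10).

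AKR1C3 in the same line was at 112, 94.5, 121 and 123 at low glucose and at 268, 249, 230 and 238 at high glucose. AKR1C1 was at 12.8, 9.38, 15.9 and 11.2 at low glucose and at 45.3, 55.7, 42.9 and 51.0 at high glucose. Neither gene's groups overlapped. AKR1C3 rose by 1.13 ± 0.08 log2 units (limma, adjusted p = 7.4e-08) and AKR1C1 by 1.91 ± 0.18 (limma, adjusted p = 6.8e-07).

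The sum of the 3 AKR1C genes, which reads exchanged among them do not affect, went from 453 ± 27.9 to 1047 ± 60.0 in MDA-MB-175. The log2 change was 1.21 ± 0.05 (limma, adjusted p = 1.8e-10). AKR1C2 made up 72.5% ± 2.08 of that sum at low and 71.8% ± 0.50 at high glucose (SD, n = 4). AKR1C1 went from 2.71% ± 0.54 to 4.66% ± 0.52 of it. Its lowest share at high glucose, 4.07%, was above its highest at low glucose, 3.47%.

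HCC1500 held the same genes at lower levels. AKR1C1 was at 3.04, 7.62, 6.52 and 5.17 at low glucose and at 10.6, 11.9, 19.3 and 15.7 at high glucose, again without overlap. It rose by 1.24 ± 0.29 log2 units (limma, adjusted p = 0.017), or by 1.10 ± 0.28 without HG replicate 3 (limma, adjusted p = 0.0028). Without LG replicate 4 its adjusted p was 0.052 in limma (log2 change 1.23), the highest over its alternatives, the lowest being 0.00051.

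AKR1C2 in HCC1500 was at 16.7, 13.02, 16.9 and 13.8 against 24.2, 19.9, 41.6 and 23.1. The groups did not overlap, and the highest value was HG replicate 3. The log2 change was 0.76 ± 0.24 and missed the threshold (limma, adjusted p = 0.053), while without HG replicate 3 it was 0.54 ± 0.18 and passed (limma, adjusted p = 0.016). Over its alternatives, adjusted p ran from 0.0026 to 0.14.

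AKR1C3 in HCC1500 was at 19.4, 24.5, 23.4 and 25.4 against 22.4, 28.4, 63.1 and 23.1, with overlap. Its log2 change was 0.42 ± 0.31 (limma, adjusted p = 0.40), and 0.08 ± 0.16 without HG replicate 3 (limma, adjusted p = 0.69). The AKR1C sum in HCC1500 went from 43.8 ± 3.29 to 75.8 ± 32.2, a log2 change of 0.70 ± 0.24 (limma, adjusted p = 0.074) that was 0.44 ± 0.11 without HG replicate 3 (limma, adjusted p = 0.0022). AKR1C3 made up 52.8% ± 3.68 of this sum at low glucose, so by reads the leading gene was AKR1C3 in HCC1500 and AKR1C2 in MDA-MB-175. These shares do not account for transcript length. Per kb of reference transcript at low glucose, AKR1C2 and AKR1C3 were at 102 and 95.0 in MDA-MB-175 and at 4.70 and 19.5 in HCC1500. Per kb of all annotated exons they were at 53.9 and 28.8 in MDA-MB-175 and at 2.48 and 5.92 in HCC1500.

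In ZR-75-30, AKR1C1 and AKR1C2 were listed at 0 in all 8 cultures. A count of 0 there allows up to 3 reads, worth 1.27 to 2.29. AKR1C3 had 3 reads over the 4 LG cultures and 9 over the 4 HG cultures, and both group means were under the floor, so no fold is given.

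**Figure D2:**
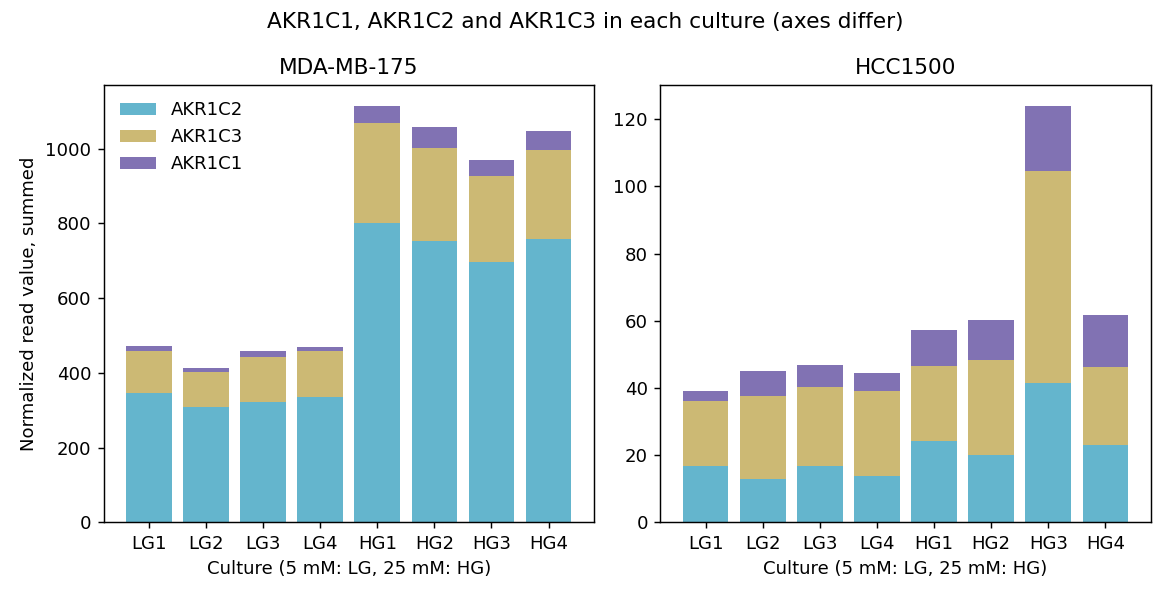
Normalized read values of AKR1C2 (blue), AKR1C3 (yellow) and AKR1C1 (purple) stacked for each LG and HG culture of MDA-MB-175 and HCC1500 (vertical axes differ and start at 0). The 4 HG bars of MDA-MB-175 average 1047 against 453 for the LG bars, and the tallest HCC1500 bar is HG replicate 3.

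GSTA1 and GSTA2 of the alpha class moved the other way in MDA-MB-175, at low levels. In MDA-MB-175, GSTA2 was at 8.03, 8.71, 11.96 and 6.61 at low glucose and at 2.50, 1.14, 0.781 and 1.05 at high glucose. GSTA1 was at 6.02, 5.36, 5.12 and 6.10 against 2.50, 2.27, 1.95 and 2.63. Neither gene's groups overlapped, and the HG values rest on 12 and 20 reads over 4 cultures. GSTA2 fell by 2.08 log2 units (SE 0.31, limma, adjusted p = 9.9e-05). Its mean of 1.37 at high glucose lay within the floors of those cultures, 1.17 to 1.70, so the size of the fall is uncertain. Over its alternatives the log2 change of GSTA2 ran from -2.70 to -0.99. GSTA1 fell by 0.997 (SE 0.26, limma, adjusted p = 0.010), and with DESeq2 on the recovered reads its adjusted p was 0.068. The range over its alternatives was 0.0044 to 0.068.

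In HCC1500, GSTA2 was at 1.90, 4.13, 3.83 and 3.01 at low glucose and at 0.590, 0.995, 0.743 and 1.85 at high glucose. The groups were separated by only the gap between 1.85 and 1.90. The HG values rest on 8 reads over 4 cultures, and their mean of 1.04 is under the floor. GSTA2 fell by 1.05 log2 units (SE 0.29, limma, adjusted p = 0.036), and by 0.99 without HG replicate 3 (limma, adjusted p = 0.031). This call was lost when LG replicate 2, 3 or 4 or HG replicate 1 or 2 was left out, with adjusted p from 0.073 to 0.11 in limma. It was also lost with edgeR (adjusted p = 0.054, and 0.070 without HG replicate 3), with DESeq2 (0.10) and after removal of an exon length trend (limma, adjusted p = 0.059). GSTA1 in HCC1500 had 10 reads over the LG cultures, 6 of them in replicate 1, and 2 over the HG cultures. The LG cultures of this line were deeper, with 13190982 to 17998819 reads against 9423472 to 12140912 in the HG cultures. GSTA1 had too few values for the test within the line. In the fit on all 24 samples its log2 change was -0.59 ± 0.22 (limma, adjusted p = 0.046), with group means of 0.961 and 0.240, both under the floor. The spread shared in that fit includes the ZR-75-30 cultures, which are all listed at 0 for GSTA1 and add no variation.

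The sum of GSTA1 and GSTA2 went from 14.5 ± 1.85 to 3.70 ± 0.95 in MDA-MB-175 (log2 change -1.73 ± 0.24, limma, adjusted p = 4.6e-05). In HCC1500 it went from 4.18 ± 0.23 to 1.28 ± 0.79, a mean under the floor (log2 change -1.24 ± 0.28, limma, adjusted p = 0.015). That change was -1.13 ± 0.35 when HG replicate 3 was left out (limma, adjusted p = 0.0089). Both genes were listed at 0 in all 8 ZR-75-30 cultures.

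GSTA4, whose product prefers the lipid peroxidation aldehyde 4-hydroxynonenal, averaged 50.04 to 68.1 at low glucose in the 3 lines, and its change with glucose differed in direction. In ZR-75-30 it was at 47.1, 53.5, 43.9 and 55.7 at low glucose and at 80.2, 74.9, 82.9 and 69.9 at high glucose. In HCC1500 it was at 60.0, 60.3, 74.8 and 77.1 against 33.6, 27.9, 54.2 and 32.8. In MDA-MB-175 it was at 61.8, 65.0, 60.4 and 63.6 against 64.9, 65.3, 52.3 and 62.0, with overlap. The groups did not overlap in ZR-75-30 or HCC1500. GSTA4 rose by 0.61 ± 0.11 log2 units in ZR-75-30 (limma, adjusted p = 2.3e-04) and fell by 0.89 (SE 0.21) in HCC1500 (limma, adjusted p = 0.018). Without HG replicate 3 it fell by 1.09 (SE 0.13) in HCC1500 (limma, adjusted p = 7.3e-07), and its call there was lost without LG replicate 3 or 4 or HG replicate 4, with adjusted p of 0.060, 0.062 and 0.051 in limma. Its log2 change in MDA-MB-175 was -0.04 ± 0.10 (limma, adjusted p = 0.82).

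GSTK1 was at 861, 783, 817 and 776 in the LG and 1268, 1184, 1137 and 1253 in the HG cultures of MDA-MB-175. In ZR-75-30 it was at 312, 338, 334 and 268 against 481, 525, 509 and 463. The groups did not overlap in either line. It rose by 0.58 ± 0.05 log2 units in MDA-MB-175 (limma, adjusted p = 2.1e-07) and by 0.66 ± 0.07 in ZR-75-30 (limma, adjusted p = 1.7e-07). In HCC1500 it was at 673, 702, 689 and 722 against 615, 616, 1286 and 574. The HG cultures other than replicate 3 lay below every LG culture, and replicate 3 lay above all. The log2 change was 0.06 ± 0.24 (limma, adjusted p = 0.89). Without HG replicate 3 GSTK1 fell by 0.21 (SE 0.04, limma, adjusted p = 1.1e-04), while the median gene moved by -0.12.

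MGST1 was the transferase with the highest level per kb of its reference transcript in every group, for example 3128 in ZR-75-30, 2325 in MDA-MB-175 and 1056 in HCC1500 at low glucose. Counted per kb of all annotated exons instead, GSTM3 and GSTK1 exceeded it in HCC1500. In MDA-MB-175 MGST1 was at 2199, 2105, 2124 and 2174 against 2891, 2829, 2701 and 2964, without overlap. In ZR-75-30 it was at 2848, 2866, 2835 and 3024 against 3228, 3007, 3252 and 3176, where LG replicate 4 overlapped HG replicate 2. It rose by 0.40 ± 0.04 log2 units in MDA-MB-175 (limma, adjusted p = 1.3e-06) and by 0.13 ± 0.04 in ZR-75-30 (limma, adjusted p = 0.0072). In HCC1500 it was at 976, 998, 1009 and 925 against 877, 905, 1658 and 924. Its log2 change there was 0.10 ± 0.19 (limma, adjusted p = 0.76). Without HG replicate 3 it fell by 0.11 (SE 0.04, limma, adjusted p = 0.0096), close to the median gene, and with median-of-ratios scaling and without that culture it was at 0.004 ± 0.04 (limma, adjusted p = 0.93).

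GSTM3, the mu-class enzyme, passed in ZR-75-30 and missed the threshold in the other two lines when all cultures were used. In ZR-75-30 it was at 1633, 1676, 1643 and 1597 against 2002, 1851, 1885 and 1748, without overlap, and rose by 0.19 ± 0.04 log2 units (limma, adjusted p = 7.5e-04). In the fit on all 24 samples, whose shared spread includes HCC1500 HG replicate 3, the calls of GSTM3 and MGST1 in ZR-75-30 were lost (limma, adjusted p = 0.40 and 0.51). In MDA-MB-175 it averaged 607 ± 25.0 and 664 ± 41.0, and its log2 change of 0.13 ± 0.05 missed the threshold (limma, adjusted p = 0.079). Over its alternatives, adjusted p in that line ran from 0.029 to 0.22. In HCC1500 it was at 2015, 2053, 2183 and 2082 against 2204, 2159, 4518 and 2091. The log2 change was 0.31 ± 0.23 (limma, adjusted p = 0.39), and 0.05 ± 0.03 without HG replicate 3 (limma, adjusted p = 0.20). With median-of-ratios scaling and without that culture GSTM3 rose by 0.17 ± 0.03 (limma, adjusted p = 1.4e-04).

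GSTP1, the pi-class enzyme that is lost from many tumors, separated the lines and not the media. In ZR-75-30 it was at 65.9, 58.0, 77.5 and 69.5 at low and at 71.3, 66.2, 71.8 and 61.7 at high glucose. The groups overlapped throughout, and the log2 change was 0.01 ± 0.11 (limma, adjusted p = 0.97). In MDA-MB-175 it had 4 reads over the LG and 2 over the HG cultures, and in HCC1500 it was listed at 0 in all 8 cultures.

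**Figure D3:**
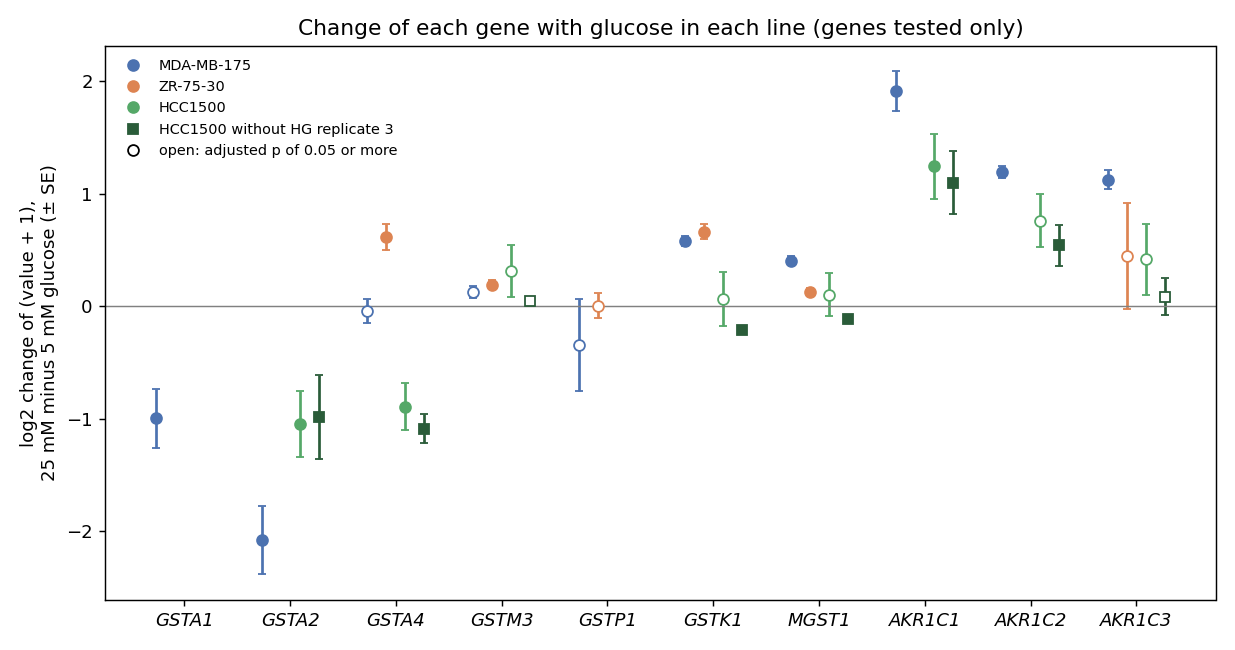
Log2 change of (value + 1) from 5 mM to 25 mM glucose (vertical axis, ± SE) of each gene that was tested in ZR-75-30, MDA-MB-175 and HCC1500, the last also without HG replicate 3, with open symbols for adjusted p of 0.05 or more. AKR1C1 is at 1.91 in MDA-MB-175 and 1.24 in HCC1500, GSTA2 lies below 0 in both, and GSTA4 lies above 0 in ZR-75-30 and below 0 in HCC1500.

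Counted over the 10 genes, 6 were tested in ZR-75-30, 8 in HCC1500 and all in MDA-MB-175. The others had too few values of at least 0.5. Groups without overlap were found for 7 of the 10 in MDA-MB-175 (26.6% of all genes tested), 3 of 6 in ZR-75-30 (42.0%) and 4 of 8 in HCC1500 (32.4%), or 6 of 8 without HG replicate 3 (58.1%). In MDA-MB-175, 7 passed, of which 5 rose and 2 fell, where 25.7% of all genes tested passed and 11.9% rose. In ZR-75-30, 4 passed and each rose, where 46.0% of all genes passed and 23.4% rose. None of the 6 tested there had a log2 change below 0, but GSTP1 was at 0.01 ± 0.11 and AKR1C3 had both group means under the floor. In HCC1500, 3 passed, of which 1 rose and 2 fell, where 20.5% of all genes passed and 7.46% rose. Without HG replicate 3, 2 rose and 4 fell, where 58.5% of all genes passed and 20.9% rose. With median-of-ratios factors, which split all calls in HCC1500 into 1726 higher and 1802 lower in place of 1221 and 2129, 2 rose and 2 fell. The median log2 change of the genes tested was 0.32 in ZR-75-30, 0.27 in MDA-MB-175 and 0.21 in HCC1500, against 0.01, -0.02 and -0.06 over all genes. In HCC1500 without HG replicate 3 it was -0.03, against -0.12.

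Whether the glucose change itself differed between the lines was tested with 1 model of all 24 cultures. Of the 10 genes, 4 passed (GSTA2, GSTA4, AKR1C1 and AKR1C2), where 29.3% of all genes did. Without HCC1500 HG replicate 3 GSTA1, GSTK1 and MGST1 passed too, with 48.6% of all genes. A gene listed at 0 in ZR-75-30 has a change of 0 there on the log2(value + 1) scale, which sets part of this result for GSTA1, GSTA2, AKR1C1 and AKR1C2. With the count models edgeR and DESeq2 on the recovered reads, 1 of the 10 (GSTA4) and 2 of the 10 (GSTA4 and GSTK1) passed.

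GSTA4 had a change 1.51 ± 0.21 log2 units higher in ZR-75-30 than in HCC1500 (limma, adjusted p = 1.1e-05), 0.85 higher in MDA-MB-175 than in HCC1500 (limma, adjusted p = 0.0058) and 0.66 higher in ZR-75-30 than in MDA-MB-175 (limma, adjusted p = 0.045). Between the 2 lines that held AKR1C1 and AKR1C2, the change in MDA-MB-175 was 0.67 higher for AKR1C1 (limma, adjusted p = 0.14) and 0.43 higher for AKR1C2 (limma, adjusted p = 0.20). Without HG replicate 3 these differences were 0.81 (limma, adjusted p = 0.051) and 0.65 (limma, adjusted p = 0.0054). For GSTA2 the change in MDA-MB-175 was lower by 1.03 (limma, adjusted p = 0.031), and lower by 1.15 with an adjusted p of 0.32 in edgeR. For GSTK1 the change in MDA-MB-175 was 0.52 higher than in HCC1500 (limma, adjusted p = 0.12), and 0.79 higher without HG replicate 3 (limma, adjusted p = 1.4e-07).

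The lines were also compared with each other at low glucose, on the assumption that the authors' scaling makes them comparable. Values of a low-glucose culture summed to at most 7323710 in ZR-75-30, 6302200 in MDA-MB-175 and 5716906 in HCC1500. Of the 10 genes, 9 differed between MDA-MB-175 and ZR-75-30, 8 between MDA-MB-175 and HCC1500 and 10 between ZR-75-30 and HCC1500, where 63.8%, 72.6% and 73.0% of all genes did. AKR1C2 was 21.7-fold higher in MDA-MB-175 than in HCC1500 (log2 difference 4.36 ± 0.16, limma, adjusted p = 5.3e-17). Against ZR-75-30, listed at 0, its level was at least 143-fold higher in MDA-MB-175 and at least 6.59-fold higher in HCC1500, with 3 reads per library as the floor. AKR1C1 was 2.21-fold higher and AKR1C3 4.87-fold higher in MDA-MB-175 than in HCC1500. For AKR1C1, AKR1C2, GSTA1 and GSTA2, all listed at 0 in ZR-75-30, the cultures of that line add no variation to the spread shared by this model. GSTP1 was at least 52.4-fold higher in ZR-75-30 than in HCC1500.

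Among the abundant transferases, GSTM3 at low glucose was 3.43-fold higher in HCC1500 than in MDA-MB-175 (limma, adjusted p = 3.1e-10) and 2.70-fold higher in ZR-75-30 than in MDA-MB-175 (limma, adjusted p = 1.6e-08). Its difference between ZR-75-30 and HCC1500 was -0.35 log2 units (limma, adjusted p = 0.042), and the call was lost under each of edgeR, DESeq2 and median-of-ratios scaling and when any 1 LG culture of either line was left out. GSTK1 was 2.59-fold higher in MDA-MB-175 than in ZR-75-30, and MGST1 2.96-fold higher in ZR-75-30 than in HCC1500. The order of the lines was ZR-75-30, then MDA-MB-175, then HCC1500 for MGST1 and HCC1500, then ZR-75-30, then MDA-MB-175 for GSTM3. GSTA4 did not pass between MDA-MB-175 and ZR-75-30 (log2 difference 0.33 ± 0.15, limma, adjusted p = 0.059) or between MDA-MB-175 and HCC1500 (-0.11 ± 0.15, limma, adjusted p = 0.52). The first of these passed in 6 of 38 alternatives, such as without HCC1500 HG replicate 3 (limma, adjusted p = 0.0078). GSTK1 did not pass between MDA-MB-175 and HCC1500 (0.22 ± 0.16, limma, adjusted p = 0.23). It passed in 7 of 38 alternatives, such as edgeR (adjusted p = 0.027), DESeq2 (adjusted p = 0.049) and without HCC1500 HG replicate 3 (limma, adjusted p = 0.0018). That culture is in no low-glucose group but is part of the shared spread. The calls for GSTP1 between MDA-MB-175 and HCC1500 and for GSTA1 between ZR-75-30 and HCC1500 set groups at or under the floor against each other.

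At high glucose the order of ZR-75-30 and HCC1500 for GSTA4 was turned. It was 2.07-fold higher in ZR-75-30 than in HCC1500 (log2 difference 1.08 ± 0.15, limma, adjusted p = 7.8e-07), whereas at low glucose it was 1.36-fold higher in HCC1500 (limma, adjusted p = 0.012), a call that edgeR did not make (adjusted p = 0.061). Leaving out HG replicate 3 made the high-glucose difference 2.45-fold (1.27 ± 0.11, limma, adjusted p = 2.7e-10). Against MDA-MB-175, too, HCC1500 was lower at high glucose (log2 difference 0.74 ± 0.15 in favor of MDA-MB-175, limma, adjusted p = 1.0e-04), also when HG replicate 3 was left out (0.94 ± 0.11, limma, adjusted p = 5.8e-08).

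The genes around these enzymes were read through 6 lists of related genes. Counts in every list stand against 25.7% of all genes that passed in MDA-MB-175, 46.0% in ZR-75-30, 20.5% in HCC1500 and 58.5% in HCC1500 without HG replicate 3. The shares of all genes that passed and rose were 11.9%, 23.4%, 7.46% and 20.9% in the same order. Over all genes the median log2 change was -0.02, 0.01, -0.06 and -0.12 in the same order. In HCC1500 without HG replicate 3, 35.7% of all calls were higher at high glucose, against 50.5% with median-of-ratios factors. Of the other glutathione transferases, 12 of 16 were tested in MDA-MB-175, of which 0 rose and 4 fell by limma. In ZR-75-30, 2 rose and 1 fell of 9, and in HCC1500 0 passed of 11, against 6 that fell without HG replicate 3. The median log2 changes of these transferases were -0.16, 0.03, -0.26 and -0.35 in that order. The smallest of the 4 falls in MDA-MB-175 was that of MGST3, a membrane transferase, from 528 to 465 (log2 change -0.18, limma, adjusted p = 0.016). The largest was that of GSTT2B, from 22.6 to 13.5 (-0.71, limma, adjusted p = 0.036), and GSTO2 was at -0.28 (limma, adjusted p = 0.026). MGST3 rose from 1417 to 1632 in ZR-75-30 (0.20, limma, adjusted p = 4.6e-04). In HCC1500 its change was -0.26 (limma, adjusted p = 0.53), and -0.55 without HG replicate 3 (limma, adjusted p = 1.9e-08). GSTT2 (119 to 94.2, log2 change -0.33, limma, adjusted p = 0.025) has a near-identical copy, GSTT2B, so that their values are uncertain. GSTCD fell by 0.78 log2 units in ZR-75-30, from 152 to 88.4 (limma, adjusted p = 1.4e-07).

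Of the other aldo-keto reductases, 8 of 13 were tested in each line. In MDA-MB-175, 1 rose and 1 fell, in ZR-75-30 1 rose and 2 fell, and in HCC1500 0 passed by limma, or 3 that fell without HG replicate 3. Their median log2 changes were 0.11, 0.01, 0.09 and -0.09. AKR1B10, which reduces retinal and lipid aldehydes, rose in MDA-MB-175 from 26.7 to 43.9 (log2 change 0.70 ± 0.15, limma, adjusted p = 0.0023). AKR1B1, the aldose reductase that turns glucose into sorbitol, fell in ZR-75-30 from 12.8 to 5.42 (-1.12 ± 0.25, limma, adjusted p = 0.0012).

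Among genes of glutathione synthesis, breakdown and recycling, 8 rose and 6 fell of 23 in ZR-75-30, 8 rose and 3 fell of 24 in MDA-MB-175, and 3 rose and 3 fell of 24 in HCC1500. Without HG replicate 3 the HCC1500 counts were 5 and 14, where 58.5% of all genes passed. In the line order given for all genes, the median log2 changes were 0.06, 0.02, -0.12 and -0.27. GCLM, the modifier subunit of the rate-limiting enzyme of glutathione synthesis, rose in each line, by 0.43 in ZR-75-30 (limma, adjusted p = 7.5e-07), 0.56 in HCC1500 (limma, adjusted p = 0.0021) and 0.76 in MDA-MB-175 (limma, adjusted p = 3.0e-05). GCLC passed in MDA-MB-175 (0.33, limma, adjusted p = 2.7e-04) but not in ZR-75-30 (0.08, limma, adjusted p = 0.16). In HCC1500 GCLC was at 0.09 (limma, adjusted p = 0.65), or 0.21 without HG replicate 3 (limma, adjusted p = 4.0e-04). GSS fell by 0.50 in ZR-75-30 (limma, adjusted p = 2.7e-06) and 0.19 in MDA-MB-175 (limma, adjusted p = 0.017). In HCC1500 it was at -0.41 (limma, adjusted p = 0.16), or -0.61 without that culture (limma, adjusted p = 5.5e-10). SLC3A2, the heavy chain of the cystine transporter, rose in each line, as GCLM did. The rises were 0.52 in MDA-MB-175 (limma, adjusted p = 2.3e-06) and 0.99 in ZR-75-30 (limma, adjusted p = 1.2e-11), with HCC1500 at 1302 ± 34.5 and 4032 ± 1803 (1.54 ± 0.24, limma, adjusted p = 0.0027). In HCC1500 without HG replicate 3, GCLM rose by 0.53 (limma, adjusted p = 8.2e-07) and SLC3A2 by 1.27 ± 0.03, to 3131 ± 18.4 (limma, adjusted p = 1.5e-16). SLC7A11, its light chain, rose in MDA-MB-175 from 91.8 to 262 (1.502, limma, adjusted p = 7.7e-09) and fell in ZR-75-30 from 559 to 286 (-0.97, limma, adjusted p = 5.6e-11). In HCC1500 its change was 0.17 (limma, adjusted p = 0.68), and 0.46 without HG replicate 3 (limma, adjusted p = 3.1e-07).

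The largest changes in that list by line were those of GLRX, a glutaredoxin, in MDA-MB-175 (60.1 to 205, log2 change 1.76, limma, adjusted p = 4.7e-10) and GPX3, a secreted glutathione peroxidase, in ZR-75-30 (66.8 to 164, 1.29, limma, adjusted p = 3.2e-09), beside SLC3A2 in HCC1500. Among exporters of conjugates, 3 rose and 1 fell of 9 in ZR-75-30, 2 rose of 10 in MDA-MB-175, and 4 fell of 9 in HCC1500 (2 rose and 5 fell without HG replicate 3). The median log2 changes of these exporters were 0.15, 0.11, -0.53 and -0.52 in the order given for all genes. ABCC3 rose from 2639 to 3551 in MDA-MB-175 (0.43, limma, adjusted p = 1.0e-06). ABCC1, the founding glutathione conjugate pump, rose from 337 to 436 in ZR-75-30 (0.37, limma, adjusted p = 2.4e-04). ABCC6 fell from 58.6 to 28.0 in HCC1500 (-1.06, limma, adjusted p = 0.0026), and by 1.18 without HG replicate 3 (limma, adjusted p = 3.0e-07).

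Of other carbonyl reductases and aldehyde dehydrogenases, 7 rose and 9 fell of 23 in ZR-75-30, 3 rose and 6 fell of 23 in MDA-MB-175, and 5 rose and 3 fell of 21 in HCC1500, or 7 and 11 without HG replicate 3, where 58.5% of all genes passed. In the line order given for all genes, the median log2 changes were 0.05, -0.06, -0.02 and -0.27. ALDH1A3, which makes retinoic acid, rose in MDA-MB-175 from 699 ± 21.2 to 2231 ± 13.3 (1.67 ± 0.04, limma, adjusted p = 6.2e-14). DHRS2 fell in ZR-75-30 from 11.7 to 4.16 (-1.31, limma, adjusted p = 7.2e-04), and ALDH3B2 fell in HCC1500 from 1177 to 452 (-1.39, limma, adjusted p = 1.4e-04), or by 1.51 without HG replicate 3 (limma, adjusted p = 5.1e-16). DHRS3, which reduces retinal, rose in each line, by 1.27 in ZR-75-30, 1.16 in HCC1500 and 0.91 in MDA-MB-175 (limma, adjusted p = 1.2e-09, 0.022 and 2.0e-07). Its rise in HCC1500 was 0.86 without HG replicate 3 (limma, adjusted p = 1.6e-04).

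Among enzymes of sex steroids and prostaglandins, the substrates of AKR1C enzymes, 6 rose and 5 fell of 24 in ZR-75-30, 7 rose and 6 fell of 26 in MDA-MB-175, and 4 rose and 3 fell of 24 in HCC1500, or 6 and 13 of 23 without HG replicate 3. In the line order given for all genes, the median log2 changes were -0.05, 0.16, 0.03 and -0.21. HSD17B1, which makes estradiol from estrone, rose in MDA-MB-175 from 187 to 479 (1.35, limma, adjusted p = 9.1e-10). CYP19A1, the aromatase, rose there from 1.26 to 4.96 at levels near the floor (1.44, limma, adjusted p = 0.0045). HSD17B14 rose in ZR-75-30 from 2.18 to 14.2 (2.22, limma, adjusted p = 2.4e-05), and PTGS1, a cyclooxygenase, in HCC1500 from 13.9 to 62.6 (2.12 ± 0.23, limma, adjusted p = 5.2e-04), or by 2.02 ± 0.20 without HG replicate 3 (limma, adjusted p = 1.0e-07).

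**Figure D4:**
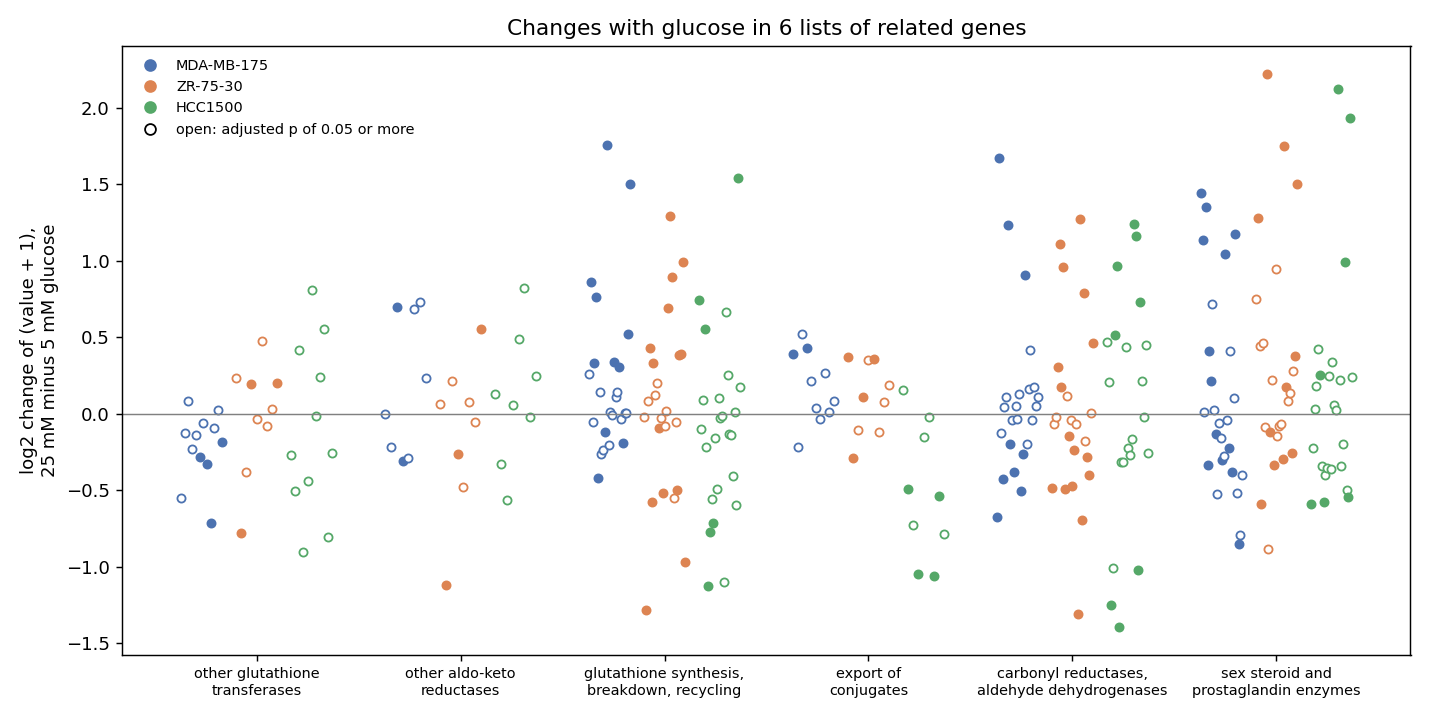
Log2 change of (value + 1) from 5 mM to 25 mM glucose (vertical axis) of each tested gene in 6 lists of related genes (horizontal axis), by line and with all cultures, with open symbols for adjusted p of 0.05 or more. Filled symbols stand on both sides of 0 in most lists, and the 4 filled symbols of conjugate export in HCC1500 lie below 0.

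The genes whose levels followed the mean of AKR1C1, AKR1C2 and AKR1C3 most closely, among 13302 other genes, were HSD17B1 (Pearson's r = 0.990), CAB39L (0.988) and AQP3 (0.984). For GSTP1 they were HOXB9 (0.996), HORMAD1 (0.995) and PIP4K2B (0.995). Each r is over 24 samples that fall into 3 separate lines, so it is a description with no test. HSD17B1 at low and high glucose averaged 4.24 and 6.17 in ZR-75-30, 48.4 and 49.5 in HCC1500 and 187 and 479 in MDA-MB-175.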

How the data were processed

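RNA from 24 cultures was sequenced on an Illumina HiSeq. Groups came from the sample titles and treatment labels. The deposited signal of each gene in a sample is a number of whole reads divided by 1 unstated factor per sample by the authors: 100% of values were whole within 0.05 reads once multiplied back. The study's methods name Trimmomatic, TopHat, hg19, DESeq2 and edgeR, and the submitters' processing notes name hg38 and edgeR. The strand setting and the counting of reads that match several genes are not given in the sources used here.

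Values were tested as log2(value + 1) with limma 3.58.1 (trend, R 4.3.3), for genes at 0.5 or more in at least 4 of the samples fitted, and p-values were Benjamini-Hochberg adjusted over all genes tested (threshold 0.05). Glucose was tested on the 8 cultures of each line. Differences between lines, and of the glucose change between lines, were tested in 1 model of 6 group means on all 24 cultures. Alternatives were pseudocounts of 0.1, 0.5 and 5, no filter or one at 5, a threshold of 0.01, CPM rescaling, median-of-ratios factors, edgeR 4.0.16 and DESeq2 1.42.0 on the recovered reads, sample weights, the replicate number as a block, removal of an exon length trend, a fit on all 24 samples, and each culture left out in turn. After the data were seen, edgeR and median-of-ratios factors were each also combined with leaving out HCC1500 HG replicate 3. The tests were tried on simulated data.

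The members and lists were chosen with earlier results of these data known. Besides the 10 genes, the text names, from each of 6 lists and in each line, the called gene with the largest change among those whose groups did not overlap, and the 3 genes most like the AKR1C mean and GSTP1. GCLM, GCLC, GSS, SLC3A2, SLC7A11, MGST3, GSTO2, GSTT2B and DHRS3 were added after their values were seen. Exon lengths and gene coordinates are from GENCODE on GRCh37 (18183 of 18889 gene IDs matched, 96.262%), and promoters from RefSeq GRCh38.p14 (10 of the 10 genes matched). Same-numbered replicates did not deviate together (mean correlations 0.036, 0.012 and 0.024 in the 3 lines), so the main tests have no block. Depth limits genes under about 3 reads per library.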

Additional observations from a re-analysis of the deposited data

Results flagged for a closer look

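In 50 groups of 4 cultures with unequal values, the culture farthest from the others was compared with Dixon's 95% critical value, which chance exceeds in about 1 in 20 groups. Of 6 values that stood apart, 4 came from HCC1500 HG replicate 3: GSTM3 at 4518, GSTK1 at 1286, MGST1 at 1658 and AKR1C3 at 63.1. The other two were MGST1 in ZR-75-30 LG replicate 4, at 3024, and GSTP1 in MDA-MB-175 HG replicate 2, at 1.14, which is 2 reads.

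The glucose change differed between lines for GSTA4 (limma, adjusted p = 3.5e-05), AKR1C1 (limma, adjusted p = 1.5e-04), GSTA2 (limma, adjusted p = 1.5e-04) and AKR1C2 (limma, adjusted p = 8.8e-04). For AKR1C1, AKR1C2 and GSTA2, all listed at 0 in ZR-75-30, adjusted p was 0.40, 0.31 and 0.48 in edgeR.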

How the results depend on the processing

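Calls in MDA-MB-175 stayed at 6 to 8 of the 10 genes and calls between lines at 7 to 10 under the alternatives run, including each culture left out. In ZR-75-30 the count was 4, except in the fit on all 24 samples, where it was 2. In HCC1500 it was 3, against 6 with sample weights, 5 in the fit on all 24 samples, 0 at a threshold of 0.01 (limma; 3 at 0.05), and, without HG replicate 3, 5 with edgeR and 6 with median-of-ratios factors. The fit on all 24 samples added GSTA1 and AKR1C2, both listed at 0 in ZR-75-30, whose cultures add no variation to the shared spread. With each culture left out the count in HCC1500 ran from 0 (without LG replicate 4) through 1 (without LG replicate 3) to 6 (without HG replicate 3). The count of genes whose change differed between lines was 4, against 8 after CPM rescaling, 1 with edgeR, 2 with DESeq2 and 7 with sample weights, and ran from 4 to 7 with each culture left out (7 without HCC1500 HG replicate 3). Calls over all genes in HCC1500 were 3350, against 9504 without HG replicate 3 (9112 with edgeR and 9242 with median-of-ratios factors), 9436 with sample weights, 1620 at a threshold of 0.01 and 2015 to 2104 without any 1 LG culture. At that threshold MDA-MB-175 had 2698 in place of 4368. For the difference between lines, 5316 genes passed, against 8809 without HG replicate 3, 9148 with sample weights and 3403 at 0.01. The cause of these shifts was not tested.

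GSTK1 in HCC1500 turned from 0.06 to -0.21 with sample weights, and, without HG replicate 3, to -0.10 with edgeR and -0.092 with median-of-ratios factors. With each culture left out it ran from -0.21 (without HG replicate 3) to 0.18. MGST1 turned from 0.10 to -0.11 with sample weights and ran from -0.11 (without HG replicate 3) to 0.19 with each culture left out. The difference of GSTA4 between ZR-75-30 and HCC1500 turned from -0.43 at low glucose, a call that edgeR did not make, to 1.08 at high glucose. Between MDA-MB-175 and HCC1500 it went from -0.11, which did not pass, to 0.74.

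With the replicate number as a block, calls were 2 in HCC1500, 4 in ZR-75-30 and 8 in MDA-MB-175, and 1964 over all genes in HCC1500. The block gained GSTM3 in MDA-MB-175 (limma, adjusted p = 0.041) and lost GSTA2 in HCC1500 (limma, adjusted p = 0.079), and changed no other glucose call of the 10 genes. Genes under the floor, such as AKR1C3 in ZR-75-30, were limited by depth.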
